A study of Mus musculus with 66 samples.

Results

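The comparison was between the cerebellum of mice in the third week of life and that of young adult mice of about 6 months, both labelled ad libitum. Feeding of the third-week mice is not described in the study's methods, whose cohorts were 6 months and older. The members were chosen from the labels by age and diet: ad libitum mice of 17 to 21 days against ad libitum mice of 169 to 194 days. They made 14 of the 66 arrays of the series, each array from a different mouse. The third-week group held 4 mice, females of 17, 19 and 21 days and 1 male of 17 days. The 6-month group held 10 mice, 5 males of 174, 180, 186, 193 and 194 days and 5 females of 169, 180, 186, 193 and 194 days. All were C57BL/6, an inbred strain, and the labels name no transgene or other treatment. Total RNA of the cerebellum was copied into radiolabelled cDNA and hybridized to a nylon filter of 8448 mouse cDNA probes, the B filter of a pair that holds the 17K clone collection. Values were the deposited Z scores, in which 1 unit is 1 SD over the probes of an array and 0 is the mean of the array. A difference in Z is therefore a difference in relative signal and cannot be turned into a fold, and a change of all transcripts together cannot be seen.

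Another mouse of the third week, the male of 19 days on array 29, was left out by rule, because its signal was low in the first runs of each block of probe numbers. Each block of probe numbers consists of 24 runs of 22 numbers. In run 1 this array lay 0.727 below the mean of the 14 others in Z, in run 2 it lay 0.696 below and in run 3 0.485 below, whereas the arrays that were used stayed within -0.132 and 0.114 of their mean in run 1. From run 8 on it lay above every one of them, 0.174 above their mean in run 24. Its median correlation with the other arrays was 0.927.

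**Figure D1:**
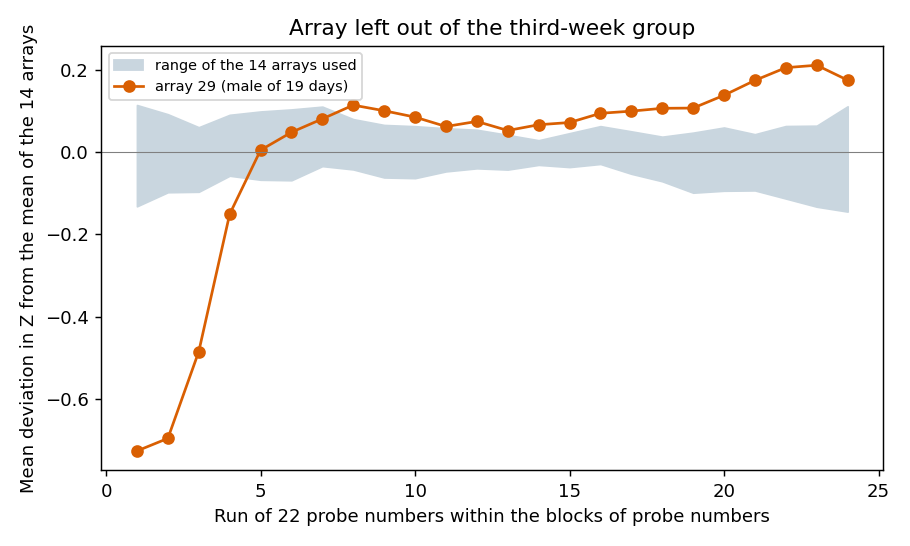
Mean deviation in Z (vertical axis) of array 29 from the mean of the 14 arrays used, over the 352 probes of each run number (horizontal axis); the band is the range of those 14 arrays. Array 29 lies far below the band in runs 1 to 3, near -0.73 in run 1, and at or above its upper edge from run 8 on.

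The third week is a busy time for the mouse cerebellum. Granule cell precursors, which divide at the surface under Sonic hedgehog released by Purkinje cells, finish dividing and their daughters migrate inward along the fibres of Bergmann glia. Purkinje cells extend their dendrites, synapses form and are pruned, and oligodendrocytes wrap axons in myelin. By 6 months this is complete. Genes of the cell cycle, of axon growth, of myelin and of the synapse are the ones that background knowledge ties to this period. RNA was from bulk tissue, so fewer cells of a type and less RNA per cell cannot be told apart in any value below.

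No gene was called different between the third week and 6 months. Of 4156 probes whose mean over both groups was above 0 in Z, 0 (0%) passed a Benjamini-Hochberg adjusted p of 0.05 in limma, and the smallest adjusted p was 0.885. Without adjustment 50 had a p under 0.05, a share of 1.20%, where the threshold alone admits 5%. Among these, 19 were higher at 6 months (0.457% of the probes tested) and 31 were lower (0.746%). For 0 probes (0%) did every 6-month mouse lie above every third-week mouse, and for 0 (0%) below. The group means over all 8448 probes correlated at 0.994. Single third-week mice correlated with 6-month mice at a median of 0.971 over 40 pairs, and with each other at 0.972 over 6 pairs.

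The differences were small beside the range of all 8448 probes in these arrays, which ran from -7.30 to 3.08 in Z. They lay between -0.375 and 0.261, with a median of 0.0055, a median size of 0.0725 and a 95th percentile of that size of 0.172. The 95% interval of a probe reached a median of 0.196 either side of its difference, and 0.579 for the least precise. For 4129 of the 4156 probes (99.4%) the whole interval lay within 0.5 Z of 0, and for all 4156 within 1 Z. The SD of the differences over all probes was 0.113, so both bounds are wide and do not show that the ages are alike. The median SD between mice was 0.114 in the third week and 0.171 at 6 months, so that most differences were smaller than the spread within a group. Each interval is for a single probe, without adjustment for the number of probes. The 50 probes of unadjusted p under 0.05 in limma differed by more than their interval reached and were still not called. With 4 mice against 10, differences somewhat larger than the intervals could thus also be missed.

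**Figure D2:**
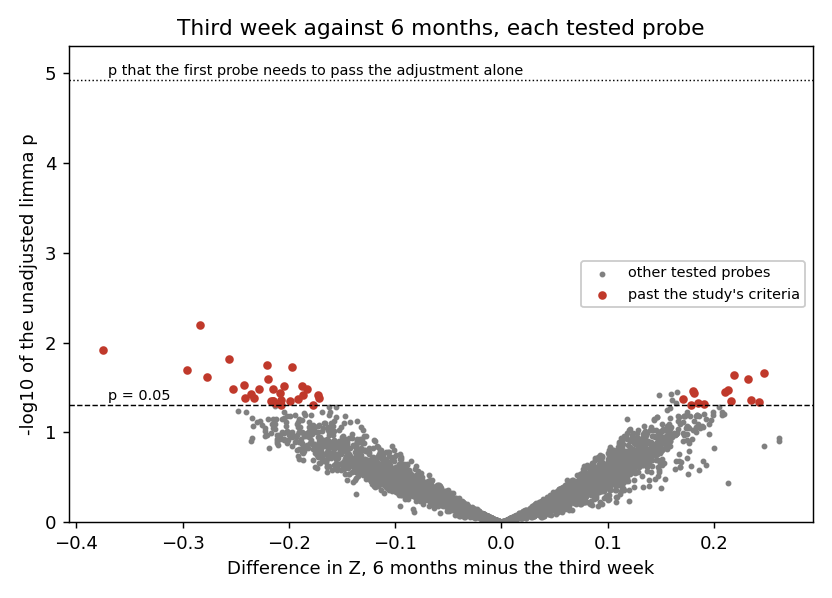
Difference in Z, 6 months minus the third week (horizontal axis), against -log10 of the unadjusted limma p (vertical axis) for the 4156 probes tested; red points passed the study's criteria and the upper line is the p that 1 probe alone would need. The lowest point is at -0.375, the highest at 0.261, and no probe comes near the upper line.

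Names on this filter stand for probes as the platform annotation gives them, and probes of one name were little alike. Of 842 pairs of probes that share a gene symbol, the mean Z of the pair correlated at 0.111, and their differences between the ages at 0.187, as a description across probes. Eef1a1, which encodes an abundant elongation factor, had 3 probes at the 50.1 to 52.9 percentile of signal. The 12 probes of Hba-a1, the alpha globin gene, ran from -0.521 to 0.446 in mean Z. Ribosomal protein probes, 91 in number, had a median of -0.0193. Of 53 cell type markers listed, 13 had a probe of 1 symbol. Among the cerebellar ones, Car8, which binds the IP3 receptor in Purkinje cells, had a mean Z of 0.740 in the third week and 0.837 at 6 months, at the 78.2 percentile. Calb1, the Purkinje cell calcium buffer, had 4 probes from -0.680 to 0.416. Of the forebrain markers Ppp1r1b alone had a probe, at the 32.1 percentile. The labelled tissue was thus neither contradicted nor well tested by its markers, and a gene name below is the name of a probe.

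The 5 named probes of smallest p that were lower at 6 months were Birc6, Car4, Letm1, Exosc2 and Foxn4, and none of them passed. Birc6, an inhibitor of apoptosis that carries a ubiquitin-conjugating domain, read 0.61, 0.83 and 0.87 in the third-week females of 17, 19 and 21 days and 0.51 in the male. At 6 months it ranged from 0.02 to 0.74 with a median of 0.48. Every third-week mouse was above the adult median, but the groups overlapped. The means were 0.705 ± 0.173 (SD, n = 4) and 0.409 ± 0.238 (SD, n = 10), a difference of -0.296 (SE 0.117) with an adjusted p of 0.885 in limma. A second Birc6 probe differed by -0.0785 (SE 0.0955).

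Car4, a carbonic anhydrase anchored at the cell surface, read 0.09, 0.13 and 0.21 in the third-week females and 0.08 in the male, against -0.53 to 0.31 with a median of -0.13 at 6 months. The third-week mice lay close together and all but 1 adult lay below them, the exception being the female of 193 days at 0.31. The difference was -0.242 (SE 0.104). Letm1, a gene for a protein of the inner mitochondrial membrane, read 0.04, 0.19, 0.24 and 0.16 in the same order, and -0.45 to 0.14 with a median of -0.01 at 6 months. The difference was -0.205 (SE 0.0878), and the low end of the adults was the female of 180 days. The other Letm1 probe, which was too dim to test, differed by -0.0925.

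Foxn4, a forkhead factor gene of neural progenitors, read 0.70, 0.73, 0.82 and 0.73 in the third week and 0.10 to 0.87 with a median of 0.56 at 6 months. The third-week mice were tightly grouped above all adults except the female of 193 days at 0.87. The difference was -0.228 (SE 0.0997). Exosc2, a subunit gene of the RNA exosome, read 0.53, 0.38, 0.68 and 0.50 in the third week and -0.07 to 0.56 with a median of 0.335 at 6 months. The groups overlapped widely, and the difference was -0.214 (SE 0.0938).

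The 5 of smallest p that were higher at 6 months were Ifitm2, Tdrd9, Bmp1, Arel1 and Mad2l1bp, and none passed. Ifitm2, an interferon-induced membrane protein gene, read 1.48, 1.09 and 1.54 in the third-week females of 17, 19 and 21 days and 1.27 in the male, against 1.38 to 1.75 with a median of 1.555 at 6 months. All third-week mice lay below the adult median. The difference was 0.219 (SE 0.0889) with an adjusted p of 0.885 in limma. Tdrd9, a gene for a helicase known from the germ line, read 1.34, 1.31, 1.29 and 1.25, and 1.32 to 2.03 with a median of 1.49 at 6 months. Its groups overlapped by a single pair of readings, and the difference was 0.232 (SE 0.0962). Without the female of 180 days, which read 2.03, the other adults lay between 1.32 and 1.63.

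Bmp1, the gene of a protease that trims procollagen, read 0.31, 0.33, 0.38 and 0.45 in the third week and 0.43 to 0.98 with a median of 0.515 at 6 months. The third-week mice were the lowest apart from the male of 17 days, which lay among the adults, and the difference was 0.213 (SE 0.0939). Arel1, a ubiquitin ligase gene, read 1.55, 1.54, 1.60 and 1.27, and 1.53 to 2.08 with a median of 1.65 at 6 months. Here 3 of the 4 third-week mice lay within the adult range, and the difference was 0.210 (SE 0.0930). Mad2l1bp, whose product silences the spindle checkpoint, read 0.62, 0.51, 0.40 and 0.50, and 0.55 to 0.90 with a median of 0.64 at 6 months. Its difference was the smallest of the 10, 0.165 (SE 0.0734).

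**Figure D3:**
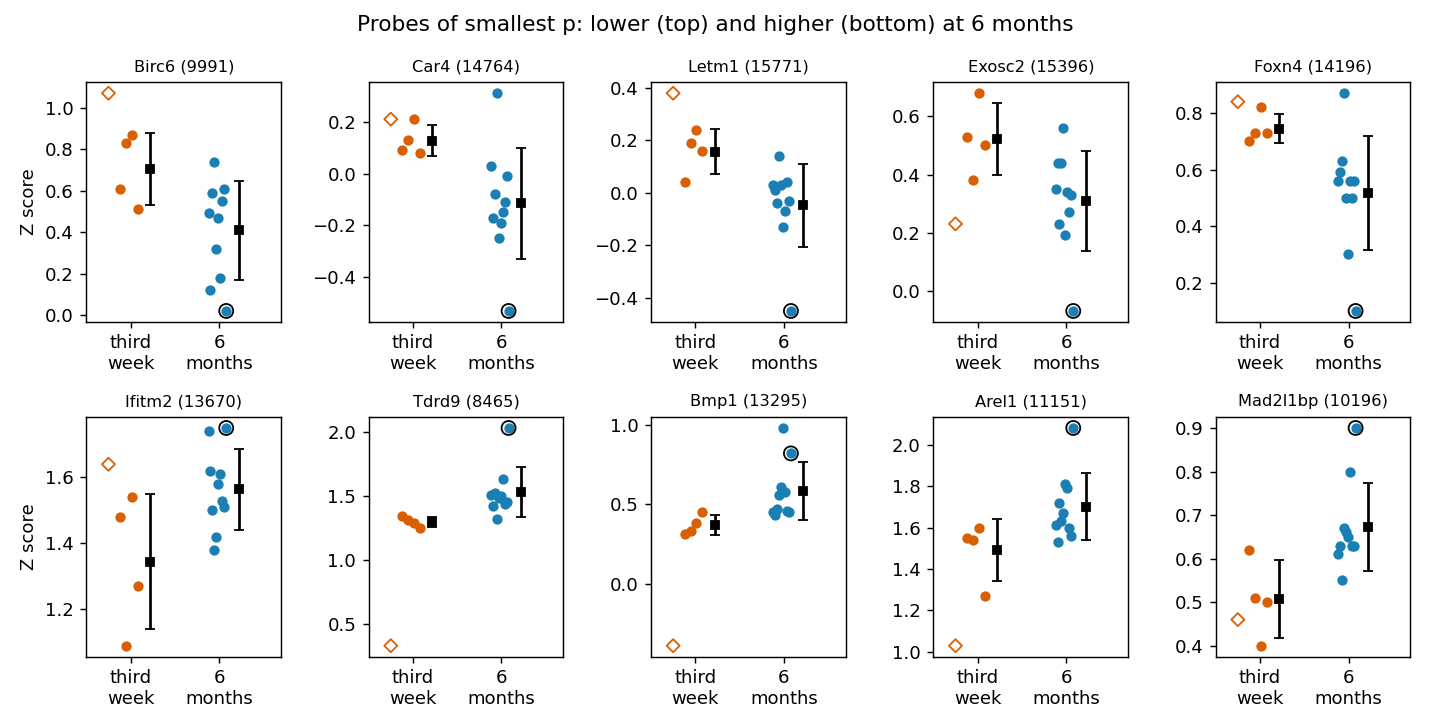
Z score (vertical axis, own scale per panel) of the 10 named probes of smallest p in each mouse of the third week (orange) and of 6 months (blue), with mean and SD as black squares and bars; the open diamond is array 29, which is in no mean, and the ringed point is the 6-month female of 180 days. The groups overlap in every panel, and the ringed mouse is at the outer end of 9 of the 10.

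One adult mouse lay at the outer end of most such probes. Of the 31 probes lower at 6 months at an unadjusted p under 0.05, the female of 180 days was the lowest adult in 25, and of the 19 higher it was the highest in 14. The share over all tested probes was not counted. Over all probes its array departed from the mean of the others with an SD of 0.371, against 0.134 to 0.245 for the remaining 13. Its median correlation with the other arrays was 0.921, against 0.958 to 0.975 for the remaining 13. It deviated by position within the runs of 22, from -0.334 at position 2 to 0.366 at position 17. Without this mouse the limma fit called 0 probes, with 44 at an unadjusted p under 0.05, and 42 of these were among the 50. The female of 193 days was the adult farthest the other way in 22 of the 50. Without that mouse alone the count at an unadjusted limma p under 0.05 was 178, of which 48 were among the 50. Without both females it was 152. In each of these fits 0 were called. The part of either mouse in the single differences was not tested.

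The mice of the 4 array sets that held both ages gave differences within a set, each a third-week mouse against 2 adults. The sets were formed here from runs of array numbers. The labels give those numbers but name no set or batch. Birc6 was lower in the adults in all 4 sets, with differences of -0.305, -0.165, -0.475 and -0.145. Tdrd9 was higher in all 4, with differences of 0.125, 0.110, 0.200 and 0.285. Car4, Letm1, Exosc2, Bmp1 and Arel1 also kept one direction in all 4 sets, whereas Foxn4, Ifitm2 and Mad2l1bp did so in 3. Since these probes were picked for their p, the count is a description. In a fit with the set as a block limma called 0 probes, and 14 lay under 0.05 before adjustment.

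The other ad libitum ages are given as a description. At 33 to 44 days 5 ad libitum mice had a mean Birc6 of 0.352 ± 0.423, Car4 of -0.088 ± 0.332 and Foxn4 of 0.550 ± 0.267 (SD), each near the 6-month mean but with a wider spread. Tdrd9 was 1.54 ± 0.285 and Ifitm2 1.64 ± 0.165 in those mice. At 16 months Tdrd9 was 1.495 ± 0.148 and at 24 months 1.54 ± 0.184, and Ifitm2 was 1.58 ± 0.194 and 1.61 ± 0.190. The Z of Birc6 was 0.324 ± 0.506 at 16 months and 0.534 ± 0.250 at 24 months, the latter between the 6-month and third-week means.

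By the pairwise criteria of the study, which take a Z-ratio of 1.5 or more, an unadjusted p under 0.05 and a mean above 0, 45 probes passed (1.08%). The later step of its selection, an analysis of variance over ages, sexes and diets, was not applied here. Of these 14 were higher at 6 months (0.337%) and 31 lower (0.746%). The Z-ratio is the difference divided by the SD of the differences over all probes, here 0.113. A single symbol was given for 22 of them, and apart from 9 of the probes above these were named after their values were seen. Higher at 6 months were Prkaca, a catalytic subunit gene of protein kinase A, by 0.234 (SE 0.109), the histone acetyltransferase gene Hat1 by 0.242 (SE 0.114), the mitochondrial glutamate carrier gene Slc25a22 by 0.191 (SE 0.0908), the proton pump assembly gene Vma21 by 0.178 (SE 0.0854) and Mrpl50 of the mitochondrial ribosome by 0.181 (SE 0.0805). None had an adjusted p below 0.885 in limma.

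Lower at 6 months by the same criteria were the kinase gene Rock1, a regulator of actin contraction, at -0.232 (SE 0.107), the pericyte receptor gene Pdgfrb at -0.172 (SE 0.0790), the corepressor gene Ctbp2 at -0.183 (SE 0.0800), the Golgi gene Golgb1 at -0.215 (SE 0.100), the sphingomyelin synthase gene Sgms1 at -0.191 (SE 0.0883), Selenof at -0.208 (SE 0.0932), the translocon gene Tram1 at -0.236 (SE 0.106) and the ribosomal protein gene Rps4x at -0.213 (SE 0.101). Other probes of these genes did not share the difference in several cases. Tram1 had a second probe at 0.0360 and Rps4x had 2 others at 0.0875 and -0.0160. The second Prkaca probe stood at -0.0490, and the other 2 Rock1 probes, too dim to test, at 0.146 and 0.0695. Of the 50 probes at an unadjusted p under 0.05, 10 shared a run of 22 with another, and 4 of these, Ctbp2, Exosc2, Tram1 and 1 further probe, lay in run 4 of block 14. After a correction for run and position on each array, 73 probes had an unadjusted limma p under 0.05, and 29 of these were among the 50. The part of filter position in the single differences was not tested.

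The direction of a difference went with the brightness of the probe. Among 124 probes of mean Z above 2, 99.2% were higher at 6 months, with a median difference of 0.102, although 0 of them had an unadjusted p under 0.05. From 1.5 to 2 the share was 73.5% of 389 and the median 0.0615. From 1 to 1.5 it was 52.6%, and below 0.5 it was 45.6% of 1549, with a median of -0.0110. The shift differed between the array sets. In set 4 alone the brightest probes differed by a median of 0.275, in set 3 by 0.0400, in set 1 by 0 and in set 2 by -0.0325. The median for the brightest probes was 0.0743 without the female of 180 days and 0.0412 without the third-week male of 17 days, and it was 0.00596 after quantile normalization. Differences of bright probes below are to be read beside these values, and a common cause was not tested.

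**Figure D4:**
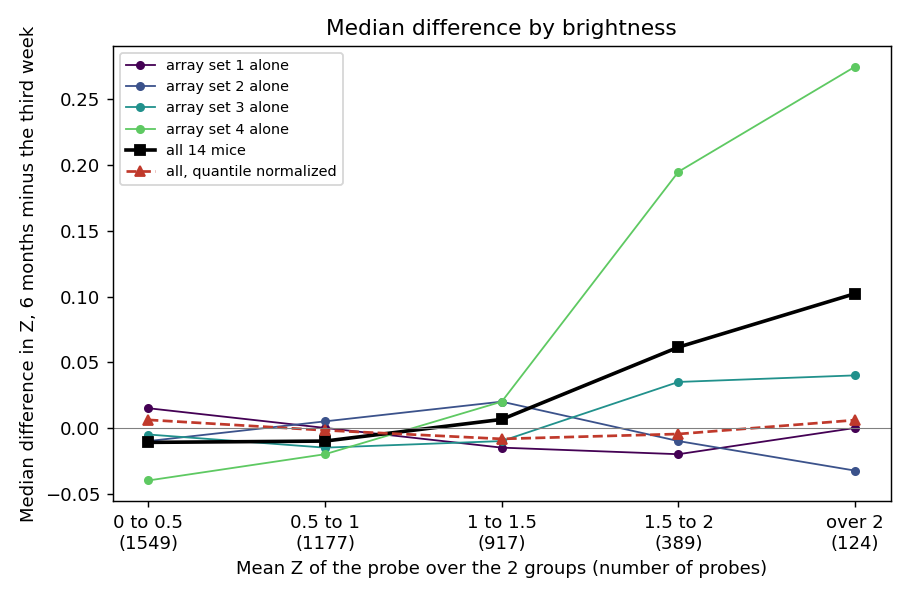
Median difference in Z, 6 months minus the third week (vertical axis), by the mean Z of the probe (horizontal axis, number of probes in parentheses), over all 14 mice, after quantile normalization, and within each array set. The line of all mice reaches 0.102 for probes above 2, the line of set 4 reaches 0.275, and the quantile-normalized line stays within 0.01 of 0.

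None of the gene lists held a called probe. The 25 lists had 394 distinct probes tested, of which 0 were called (0% over all probes) and 3 had an unadjusted p under 0.05 in limma, namely Ifitm2, Pdgfrb and Rps4x. Over the 21 lists with 3 or more tested probes the median difference ran from -0.0103 to 0.0892, beside 0.0055 over all tested probes, of which 51.7% were higher at 6 months. In the lists tied to growth of the cerebellum, cell cycle and DNA replication genes had 46 of 96 probes tested, 22 higher and 24 lower, with a median of -0.0103 that lay between -0.0307 and 0.0213 when each mouse in turn was omitted. Ccnd2, the D-type cyclin of granule cell precursors, had 5 probes, of which 3 were tested. They stood at 2.39 ± 0.182 (n = 4) and 2.49 ± 0.147 (n = 10, SD), at 1.63 ± 0.151 and 1.75 ± 0.162, and at 0.110 ± 0.154 and 0.250 ± 0.105, so that the tested probes differed by 0.102, 0.120 and 0.140, none past the test. Mcm4, a subunit gene of the replicative helicase, was 2.01 ± 0.107 and 2.07 ± 0.132, a difference of 0.0570 (SE 0.0818). The lowest member was Smc6 of the chromosome maintenance complex at -0.190 (SE 0.105).

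Hedgehog signalling and granule cell precursor genes had 4 of 11 probes tested, of which 3 were higher, with a median of 0.0825. Gas1, a Hedgehog co-receptor gene, read 0.320 ± 0.112 in the third week and 0.479 ± 0.134 at 6 months (SD). Gli2, the activating transcription factor gene of the pathway, read 0.432 ± 0.150 and 0.505 ± 0.116, and Smo, the signalling receptor, 0.255 ± 0.151 and 0.227 ± 0.0815. None was called, and the groups overlapped in each, although the Gas1 difference of 0.159 (SE 0.0826) was larger than the SD of either group. Axon growth, guidance and migration genes had 18 of 39 probes tested, 11 higher and 7 lower, median 0.0318. The 2 tested probes of Vldlr, a receptor gene of the reelin pathway that positions Purkinje cells, were the lowest of the list and pointed the same way, at -0.235 (SE 0.122) and -0.190 (SE 0.120), each with an adjusted p of 0.885 in limma. Slit2, a repulsive axon cue gene, differed by 0.0550 (SE 0.0808) and Marcks, an actin-binding substrate of protein kinase C, by -0.0185 (SE 0.113).

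The cell types of the cerebellar cortex were thinly covered. Granule neuron genes had 3 of 5 probes tested: the potassium channel genes Kcnk1 at 0.0660 and Kcnd2 at 0.0480, and Nfia at -0.0940. Purkinje cell genes had 6 of 10, 3 higher and 3 lower. All 3 lower ones were Calb1 probes, at -0.171 (SE 0.112), -0.137 (SE 0.192) and -0.0830 (SE 0.0838), and the higher ones were Dner at 0.139 (SE 0.142), Car8 at 0.0970 (SE 0.102) and Zfp804a at 0.0710 (SE 0.0961). Astrocyte and Bergmann glia genes had 7 of 16, with a median of -0.0005. Vim, the intermediate filament of Bergmann glia, was 1.02 ± 0.113 in the third week and 1.02 ± 0.0964 at 6 months, a difference of -0.0005 whose 95% interval ran from -0.155 to 0.154. Tnc, a matrix gene of immature glia, differed by 0.0835 (SE 0.0838).

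Myelin genes could hardly be read on this filter. Of 7 probes in the list 2 passed the filter on signal, Bcas1 at -0.0925 (SE 0.0847) and Gpm6b at -0.0550 (SE 0.123), and the myelin genes Mbp, Mag, Mog, Mobp and Cnp had no probe of a single symbol. Of the markers of other cells, the microglia and macrophage list had 5 of 9 probes tested, 3 higher and 2 lower. The complement genes C1qb and C1qc differed by 0.0640 and -0.0685, and the Fc receptor gene Fcgr1 by 0.146 (SE 0.0757). Red blood cell genes had 11 of 25, 4 higher and 7 lower, with a median of -0.002. Matrix and meningeal genes had 36 of 75, 25 higher and 11 lower, with a median of 0.0492, from Adamts17 at -0.202 to the fibrillar collagen gene Col3a1 at 0.143 (SE 0.0968), of which 2 other tested probes stood at 0.0325 and 0.0040. The vessel list had 1 tested probe, Pdgfrb, the choroid plexus list 1, Cldn3 at -0.142, and the interneuron list 1, Kit at 0.0165.

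The tested probes of synapse genes differed in both directions, and none was called. Synaptic vesicle genes had 18 of 37 probes tested, 10 higher and 8 lower, median 0.0015, from the vesicular glutamate transporter gene Slc17a6 at -0.222 (SE 0.128) to Syngr2 at 0.147 (SE 0.104). The 2 brightest, the synaptotagmin gene Syt11 and the vesicle protein gene Sv2a, stood at -0.0495 and -0.0465. Ion channel and receptor genes had 11 of 18, 6 higher and 5 lower, median 0.005. Interferon and antigen presentation genes had 11 of 18, 6 higher and 5 lower, median 0.0015, with Ifitm2 at the top and the class I antigen gene H2-K1 at 0.0900 (SE 0.103). Wnt and Notch genes had 9 of 22, 7 higher and 2 lower, with the Notch sheddase gene Adam10 at 0.136 and the 2 Wnt4 probes at 0.103 and -0.0020.

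In the lists of cell maintenance more tested probes had a higher than a lower mean at 6 months, except among chromatin genes, and none passed the test. All 10 tested proteasome probes, of 19 on the filter, were higher, and none had an unadjusted p under 0.05 in limma. Their median was 0.0892, with a range from 0.0210 for Psmc1 to 0.159 for Psmd10. The proteasome median was 0.0511 without the female of 180 days and 0.0372 with array 29 kept in and positions corrected. Within array sets 1 to 4 the Psmd10 probe differed by 0.105, 0.025, -0.015 and 0.375. Psmg4, the other of the 2 brightest, differed by -0.005, -0.170, -0.100 and 0.365. The third-week mouse of set 4 was the male of 17 days. The second Psmd10 probe, too dim to test, stood at -0.101. Translation factors had 22 of 44 probes, 15 higher, with a median of 0.0522, chaperones 17 of 44, 11 higher, with 0.0440, and oxidative phosphorylation 23 of 53, 16 higher, with 0.0365. The last median was -0.0022 with the position correction and the set as a block. Hspa8, the constitutive heat shock protein gene, was 2.11 ± 0.115 and 2.27 ± 0.157 (SD), a mean Z above 2. Uqcc2, an assembly factor gene of complex III, was 1.92 ± 0.154 and 2.07 ± 0.136, a mean Z just below 2. All tested probes above 2 had a median difference of 0.102, and those from 1.5 to 2 one of 0.0615. The part of brightness in these differences was not tested. Cytosolic ribosomal protein genes had 46 of 96 probes, 31 higher and 15 lower, median 0.0288, from Rps4x to a probe of Rps6 at 0.159 (SE 0.0775), whose other 3 probes stood at -0.0700, 0.0055 and -0.0055. Splicing and RNA-binding genes had 41 of 75, 28 higher, median 0.0265 (-0.0006 with array 29 kept in and positions corrected), and cholesterol and fatty acid genes 5 of 13, 4 higher, median 0.0415. Chromatin genes had 44 of 99, 20 higher and 24 lower, median -0.00875, and 2 probes of the histone methyltransferase gene Setdb1 were its highest, at 0.183 (SE 0.0938) and 0.154 (SE 0.0929).

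**Figure D5:**
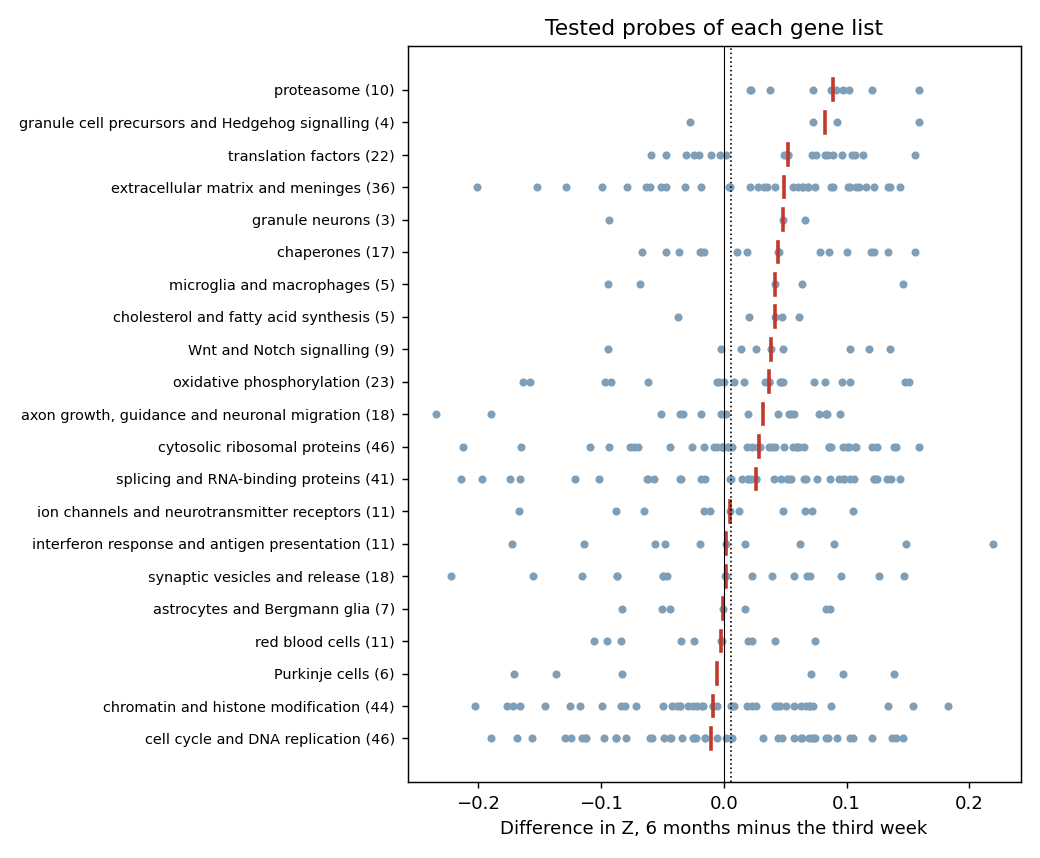
Difference in Z, 6 months minus the third week (horizontal axis), of each tested probe (blue points) in the 21 lists with 3 or more tested probes, whose number is in parentheses; red bars are list medians and the dotted line is the median of all tested probes. The medians run from -0.0103 for the cell cycle to 0.0892 for the proteasome, all well inside the scatter of the single probes.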

How the data were processed

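Cerebellar RNA of single mice was hybridized to nylon filters, and the authors quantified the spots and converted each array to Z scores. The deposited scores have mean 0 and SD 1 on every array, 2 decimals and 0 missing values. No source used here states if the signal was logged or corrected for background. Symbols came from the platform annotation: 4875 of 8448 probes had 1 symbol, 224 had several and 3349 none. A RefSeq gene ID matched 4861.

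Groups were taken from the labels, which do not say how litters were shared, so p-values measure the spread between these mice. Probes with a mean of both group means above 0 were fitted with limma 3.58.1 (R 4.3.3), lmFit and eBayes, with 12 residual degrees of freedom. The fit was tested on simulated normal values, independent between probes, with 200 probes changed by more than any difference found here. That test does not show how the fit behaves at the size of the differences found. Differences are 6 months minus the third week. The test behind the p of the study's criteria is not given, so limma's was used. The files hold no spot quality, and the number of arrays limits the precision. Tables used Python 3.11.15.

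The members and the 25 gene lists were chosen with earlier results of these data known. As none was called, the named probes were the 5 of smallest p in each direction among probes of 1 symbol, and the 2 of highest mean Z in each list with 3 or more tested probes; others are extremes of a list or past the study's criteria, named after their values were seen. Alternatives were array 29 kept, sex, array set, females alone, filters, quantile normalization, a position correction, all arrays, array weights, eBayes options, other thresholds and the omission of each mouse.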

Additional observations from a re-analysis of the deposited data

Results flagged for a closer look

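Over 100 sets of values, each named probe and the arrays' median correlations in both groups, 19 had 1 mouse apart from the rest by Dixon's criterion, which chance alone meets in about 1 of 20 groups. The female of 180 days accounted for 12 of them. At 6 months this mouse had the lowest Letm1, -0.45 against -0.13 for the next mouse, and the highest Z of Tdrd9 (2.03), Arel1 (2.08), Mcm4 (2.39), Zfp804a (1.43), Fcgr1 (1.62), Slc6a13 (2.57), Kcnq1 (1.90), Atp5md (2.53), Eif1a (2.04) and Dnaja1 (2.29). Its median correlation with the other arrays was 0.921, against 0.958 for the next. The 6-month female of 193 days had the lowest Ccnd2 at 2.16, with the next mouse at 2.44.

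In the third week the female of 17 days stood above the other mice in Marcks at 1.82, with the next at 1.51, and in Eif2ak1 at 1.78, with the next at 1.47. The male of 17 days stood below them in Eif1a (1.30), Psmd10 (0.88) and Prpf31 (1.65). Its median correlation with the other arrays was 0.963, against 0.973 for the next.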

How the results depend on the processing

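Limma called 0 probes under each of the 28 alternative fits and at an adjusted p of 0.01, and the smallest adjusted p among them was 0.639. So 0 named probes and 0 list probes were called in any. The counts without adjustment moved. With array 29 kept in, 269 probes had an unadjusted p under 0.05 and 219 passed the study's criteria, and with it kept and positions corrected 196 and 119. The pair of counts was 14 and 14 with array sets as blocks, 18 and 18 in females alone, 190 and 180 without the filter on signal, 31 and 24 in a fit of all arrays, 183 and 87 with array weights. In settings chosen after seeing the data it was 152 and 117 without the females of 180 and 193 days. With the position correction and set block the criteria count was 26 (36 without adjustment, within 1.5 times). Sex as a covariate gave 68 and 57, the position correction 73 and 46, and a Z-ratio of 2.0 left 15. Similar counts could hold different probes. Of the main 50 at an unadjusted limma p under 0.05, 42 stayed there with sex as a covariate and 29 with the position correction. It was 17 without the third-week female of 19 days, where the count was 42. Over the 28 fits it ran from 6, without the third-week female of 21 days, to 49, without the females of 180 and 193 days. On the omission of single mice the unadjusted count ran from 16 to 178 and the criteria count from 16 to 135. The mice whose omission moved either by over 1.5 times were the third-week females of 17 (86 and 75) and 21 days (16 and 16) and male of 17 days (27 and 26), and at 6 months the female of 193 (178 and 135), the female of 194 (26 and 26) and the male of 180 days (24 and 24).

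The 10 probes of smallest p kept their direction in every fit that held them. They were picked for their p in mice that these fits share, so this is a description and no support for them. Of 1958 values of named probes and list medians, 8 moved by 1 SD or more, all with array 29 kept in, among them Tdrd9 to 0.426 and Hspa8 to 0.400. Elsewhere directions were less stable: of 49 named probes up to 7 changed sign in 1 fit (position correction with set block) and of 21 list medians up to 6 (array 29 kept in, positions corrected), and on the omission of single mice up to 5 of each. The labels give no replicate numbers that pair mice of the groups, so the array set was the only block.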
